A study of Mus musculus with 6 samples.

Results

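This account covers 9 genes of the complement system in inguinal white adipose tissue (iWAT), the subcutaneous fat depot of the groin, from Zip13-KO mice and WT littermates. The genes are the 3 C1q chains (C1qa, C1qb and C1qc), C2, C3, C4b, the factors B and D (Cfb and Cfd) and the C1 inhibitor (Serping1). They were taken by their biological role and not by their values, and a probe was counted for a gene when the array design file listed it under a RefSeq transcript of that gene. This gave 11 probes for the 9 genes, all well above background on all 6 arrays, among 15307 genes that could be tested. RNA of 3 WT and 3 Zip13-KO mice was hybridised to 6 one-colour Agilent mouse arrays. The mice were 10 weeks old, on a C57BL/6J background after at least 7 backcrosses, and fed powdered food. The knockout was made in R1 embryonic stem cells, with a Neo cassette in place of several exons of Slc39a13, the gene of the zinc transporter ZIP13. It is a deletion in the whole animal, so every cell type of the depot lacked ZIP13. The labels describe both standard and high-fat food without saying which these mice received, and they give no sex. Groups were littermates, with 1 array for each labelled replicate, and p-values measure the spread between these arrays only.

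Complement is a cascade of plasma and cell-surface proteins that tags particles for uptake and recruits leukocytes. In the classical pathway, C1q binds its target and activates the proteases C1r and C1s, which cleave C4 and C2 into an enzyme that splits C3. In the alternative pathway, factor D cuts factor B bound to C3b, and this forms another such enzyme and amplifies C3 cleavage. Macrophages are the best known source of C1q, whereas factor D, also called adipsin, is a secreted product of adipocytes, and C3, C4, factor B and the C1 inhibitor are made by stromal cells and adipocytes as well as by the liver.

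For 4 of the 9 genes a RefSeq promoter was at hand (C1qb, C1qc, C3 and Cfd). The windows of C1qb and C1qc are shown because these genes lie next to each other and moved together, and that of C3 because C3 overlapped between the genotypes. Each is the stretch of 250 bases before the transcription start in GRCm38.p6, written on the strand of the gene, C1qb from chr4:136886201-136886450 (minus strand), C1qc from chr4:136892915-136893164 (minus strand) and C3 from chr17:57228137-57228386 (minus strand). Capitals mark matches, on either strand, to GAGGAA, the core bound by the myeloid factor PU.1, or to TTGCNNAA, a C/EBP motif. The motifs were chosen with these windows in view.
C1qb: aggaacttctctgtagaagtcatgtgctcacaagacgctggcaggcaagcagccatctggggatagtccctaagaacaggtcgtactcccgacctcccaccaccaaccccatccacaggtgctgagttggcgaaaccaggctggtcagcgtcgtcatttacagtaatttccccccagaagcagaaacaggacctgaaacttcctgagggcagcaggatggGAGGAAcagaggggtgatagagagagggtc
C1qc: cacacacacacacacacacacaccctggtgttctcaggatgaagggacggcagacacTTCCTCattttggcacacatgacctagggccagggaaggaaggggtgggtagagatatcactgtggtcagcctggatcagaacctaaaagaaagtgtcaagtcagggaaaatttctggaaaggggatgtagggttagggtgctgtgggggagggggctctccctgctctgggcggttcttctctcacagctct
C3: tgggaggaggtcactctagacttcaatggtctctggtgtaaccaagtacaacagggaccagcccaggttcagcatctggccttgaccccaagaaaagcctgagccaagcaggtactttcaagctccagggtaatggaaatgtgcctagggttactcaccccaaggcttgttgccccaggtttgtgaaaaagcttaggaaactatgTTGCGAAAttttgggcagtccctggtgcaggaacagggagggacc
GAGGAA ended 25 bases before the start in C1qb, and its reverse complement lay 193 to 188 bases before the start in C1qc. The C3 window held no GAGGAA but held TTGCNNAA 45 to 38 bases before the start. Over all 32851 RefSeq windows of this length, 23.3% held GAGGAA, 9.56% held TTGCNNAA and 12.4% held TATAAA, the TATA box core. None of the 3 printed windows held TATAAA, and the Cfd window held none of the 3 motifs. Such matches are short and frequent and are given as a description of the sequences.

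The targeted gene was checked first. Slc39a13 had a normalized log2 intensity of 11.29, 10.87 and 10.72 in WT 1, 2 and 3, and of 6.76, 6.66 and 6.47 in Zip13-KO 1, 2 and 3. The difference was -4.33 on the log2 scale (limma, adjusted p = 0.0013), so every array matched its label. All 6 arrays were on 1 slide and were scanned together. The median processed signal was 39.2 to 40.6 in WT and 33.2 to 35.0 in Zip13-KO, 62.5 to 63.2% of the spots were well above background in WT against 58.8 to 60.4% in Zip13-KO, and no spot was saturated. All values below are quantile-normalized log2 intensities in the order of replicates 1, 2 and 3. They compare 1 gene between arrays and not different genes with each other, because probes differ in brightness. A gene was called when its adjusted p (limma with Benjamini-Hochberg adjustment over all 15307 genes) was under 0.05 and its change exceeded 1.5-fold (0.58 on the log2 scale).

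Of the 9 complement genes, 4 were called lower in Zip13-KO and 0 were called higher. Among all genes tested, 8.28% were called lower and 10.2% higher. The 4 were the 3 C1q chains, which were 2.58-fold to 3.03-fold lower, and Serping1, which was 1.68-fold lower. C2, C3, C4b and Cfd did not pass the test, and their WT and Zip13-KO arrays overlapped. Cfb was below the WT range on every Zip13-KO array, at a change under the fold threshold. The median difference of the 9 genes was -0.41 on the log2 scale, against -0.00 over all genes tested.

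**Figure D1:**
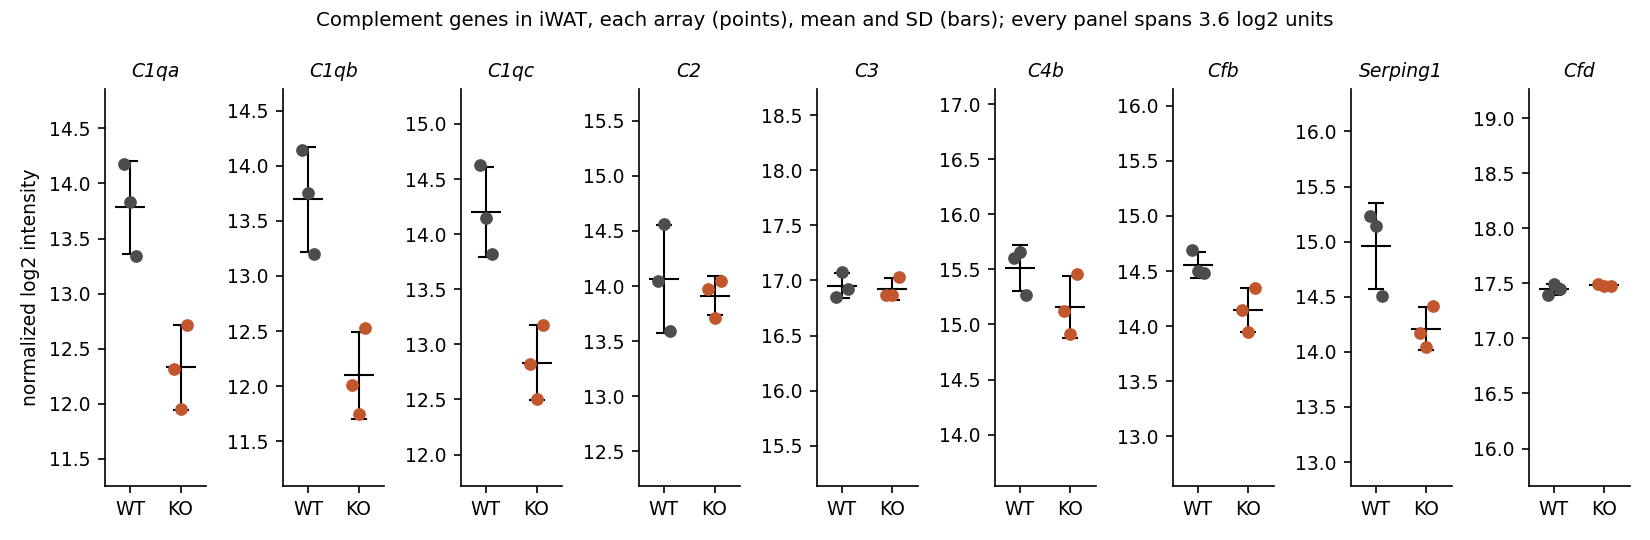
Normalized log2 intensity (vertical axis) of the 9 complement genes on the 3 WT (grey) and 3 Zip13-KO (orange) arrays, with the mean and SD of each genotype as bars; the panels have different ranges of equal height. The points of the C1q chains, Cfb and Serping1 do not overlap between the genotypes, and those of C2, C3, C4b and Cfd do.

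The 3 C1q chains form the subunits of 1 protein and are encoded by neighbouring genes on chromosome 4, in the order C1qb, C1qc and C1qa. C1qa, the A chain (NM_007572), gave 14.18, 13.83 and 13.34 in WT and 12.32, 11.95 and 12.72 in Zip13-KO. The lowest WT array was above the highest Zip13-KO array. The difference was -1.45 (SE 0.28, 95% interval -2.12 to -0.78), a 2.73-fold lower level, with an adjusted p of 0.0131 in limma.

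C1qb, the B chain (NM_009777), gave 14.14, 13.75 and 13.20 in WT and 12.01, 11.75 and 12.53 in Zip13-KO. Its difference, -1.60 on the log2 scale, was the largest of the 9 genes (SE 0.30, 95% interval -2.32 to -0.88, 3.03-fold lower, adjusted p = 0.0123, limma). C1qc, the C chain (NM_007574), gave 14.63, 14.15 and 13.82 in WT and 12.82, 12.50 and 13.18 in Zip13-KO, a difference of -1.37 (SE 0.26, 95% interval -1.99 to -0.74) with an adjusted p of 0.0128 in limma. The C1qc probe was printed on 10 spots of each array, and these spots varied by 1.49 to 2.53% (coefficient of variation) within an array, far less than the arrays varied within a genotype.

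In all 3 chains WT 1 was the highest array, WT 3 the lowest of its genotype, and Zip13-KO 3 the highest of its genotype. The chains were also set against each other by the difference of their log2 values within each array. C1qb less C1qc was -0.49, -0.40 and -0.62 in WT and -0.82, -0.74 and -0.65 in Zip13-KO, so C1qb was lower by a further 0.23, with no overlap between the genotypes. C1qa less C1qb was 0.04, 0.08 and 0.14 in WT and 0.32, 0.19 and 0.19 in Zip13-KO, also without overlap, a difference of 0.15. C1qa less C1qc overlapped, with a difference of -0.08. The exact two-sided permutation p values of these 3 pairs were 0.1, 0.1 and 0.2 (0.15, 0.15 and 0.2 after adjustment over the 3), in a design that cannot go below 0.1. For the chains themselves the exact two-sided permutation test over the 6 arrays gave p = 0.1 each, the smallest value that 3 arrays against 3 allow. With the column of the slide as a term, which leaves Zip13-KO 1 as the array to set against WT within column 1, the differences were -1.46, -1.69 and -1.38 for C1qa, C1qb and C1qc with adjusted p values of 0.101, 0.0908 and 0.0997 in limma. Without Zip13-KO 1 the adjusted p of C1qa was 0.0503 in limma at a difference of -1.45. C1qb and C1qc stayed called only narrowly, with an adjusted p of 0.0497 each in limma.

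The genes nearest to C1qa in their pattern were found by the root mean square difference of centred log2 values over the 6 arrays. These were C1qc (0.0685), the Fc receptor gene Fcgr3 (0.0688) and the folate receptor gene Folr2 (0.0896), followed by C1qb (0.0901). Fcgr3 differed by -1.44 and Folr2, which is also in the macrophage marker list used below, by -1.31 on the log2 scale.

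The other 6 members had smaller differences than the C1q chains. Within each array, the log2 value of each C1q chain was compared with that of each of the other 6 genes, 18 pairs in all. The change of the C1q chain was more negative in all 18, by 0.62 to 1.63 on the log2 scale, without overlap between the genotypes. The chains moved together over the arrays, so the 18 pairs are not separate results. Against genes with little change, such as C3 and Cfd, a pair mostly repeats the change of the chain itself. Such a count was not made for other pairs of genes. The exact two-sided permutation p was 0.1 for every pair and 0.1 after adjustment over the 18 pairs, the smallest value possible in this design.

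C4b encodes complement C4, the first substrate of activated C1s. It gave 15.60, 15.66 and 15.27 in WT and 15.12, 14.91 and 15.46 in Zip13-KO. Zip13-KO 3 lay above WT 3, and the difference of -0.35 (95% interval -0.78 to 0.08) did not pass the test (adjusted p = 0.166, limma). C4a, a near-identical copy, had no probe under its accession, so signal from both genes could not be told apart.

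C2 encodes the protease subunit of the classical C3 convertase. Its values were 14.05, 14.56 and 13.59 in WT and 13.97, 13.71 and 14.05 in Zip13-KO, and the WT arrays alone spanned the whole Zip13-KO range. The difference was -0.15 (95% interval -0.76 to 0.46, adjusted p = 0.662, limma), an interval wide enough to hold a 1.5-fold decrease. It turned to 0.10 without WT 2.

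C3 is the protein on which all pathways converge. It gave 16.85, 17.08 and 16.92 in WT and 16.87, 16.87 and 17.03 in Zip13-KO, with all Zip13-KO arrays inside the WT range. The difference was -0.03 (95% interval -0.26 to 0.20, adjusted p = 0.819, limma), an interval that leaves out a 1.5-fold change. The C3 probe ranked between 36 and 61 among 55668 probes, so quantile normalization left it little room to rise. The sign of the difference was not stable, at 0.09 with scaling to the 75th percentile and 0.03 without WT 2. A second C3 probe differed by -0.10. The genes nearest to C3 in pattern were Ppp2r1a, Ddx56 and Hnrnph2, with root mean square differences of 0.0380 to 0.0408 over 6 arrays.

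Cfb, the protease of the alternative C3 convertase, is the neighbour of C2 on chromosome 17. It gave 14.69, 14.50 and 14.48 in WT and 14.15, 13.95 and 14.35 in Zip13-KO. The difference of -0.41 (SE 0.13, 95% interval -0.71 to -0.10) was 1.33-fold, under the fold threshold, with an adjusted p of 0.0486 in limma. Counted by adjusted p alone, 5 of the 9 genes were lower, where 15.2% of all genes tested were. The adjusted p of Cfb passed 0.05 narrowly and was at or above it in 10 of 18 alternatives (0.0192 to 0.218 over all 18, limma or the methods' t-test). These were scaling to the 75th percentile, no filter, the methods' t-test after adjustment, the replicate block, the slide column, and leaving out any array other than Zip13-KO 3.

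Cfd, factor D, gave 17.39, 17.49 and 17.45 in WT and 17.49, 17.48 and 17.48 in Zip13-KO. The difference was 0.03 (95% interval -0.13 to 0.20, adjusted p = 0.717, limma). Cfd ranked between 8 and 13 among 55668 probes on every array. Quantile normalization gives a value by rank, so at the top of the range it left Cfd little room to vary, and the SD of the Zip13-KO arrays was 0.0097. Before normalization the processed signal of the Cfd probe was 177700, 183500 and 174440 in WT and 176490, 183660 and 187160 in Zip13-KO, also overlapping. With scaling to the 75th percentile in place of quantile normalization the difference was 0.24 (adjusted p = 0.045, limma), still under the fold threshold. The nearest genes in pattern were Mad2l2, Ruvbl2 and Rpp25l, with root mean square differences of 0.0142 to 0.0180 over 6 arrays.

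Serping1 encodes the C1 inhibitor, which inactivates C1r and C1s. It gave 15.23, 15.14 and 14.51 in WT and 14.17, 14.04 and 14.42 in Zip13-KO. The groups were separated by the small gap between WT 3 and Zip13-KO 3. The difference was -0.75 (SE 0.21, 95% interval -1.27 to -0.23) with an adjusted p of 0.0400 in limma. A second probe gave 14.49, 14.31 and 13.67 in WT and 13.14, 13.09 and 13.48 in Zip13-KO, a difference of -0.92. The call was the least stable of the 4. It was lost when any array other than WT 3 was left out, at differences of -0.86 to -0.61, and with the slide column as a term, at -0.79 with an adjusted p of 0.175 in limma. Serping1 lies on chromosome 2, as Slc39a13 does, with 252 protein-coding genes between them, and whether that linkage has any part in its level was not tested.

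In total 5 of the 9 genes, the C1q chains, Cfb and Serping1, were lower on every Zip13-KO array than on every WT array. Over all genes tested 25.9% were, and 29.2% were higher on every Zip13-KO array. Since this is bulk tissue, fewer cells of a type and less RNA per cell cannot be told apart.

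**Figure D2:**
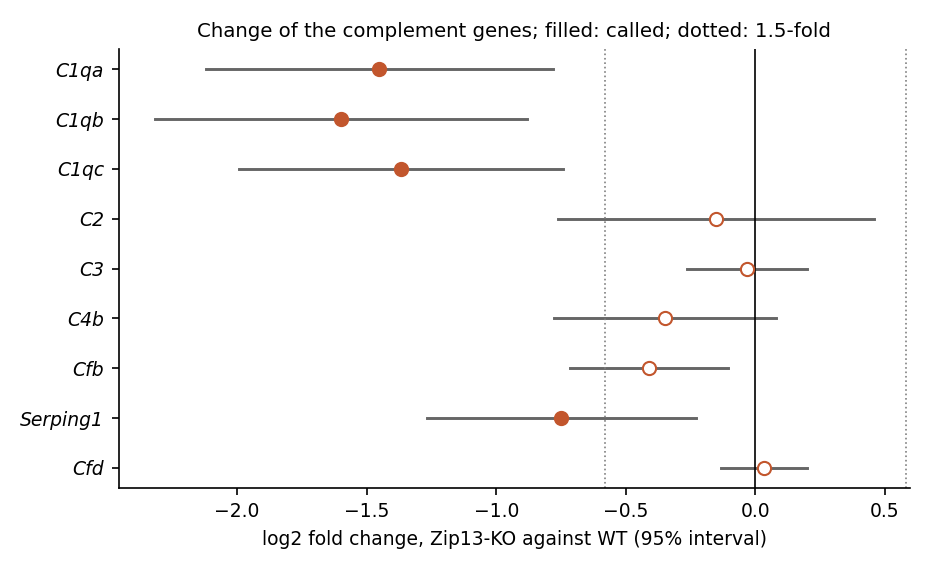
Log2 fold change of Zip13-KO against WT (horizontal axis) with its 95% interval from limma for each of the 9 genes; filled points were called and dotted lines mark 1.5-fold. The intervals of the C1q chains, from -2.32 to -0.74 at their outer ends, lie wholly beyond the fold threshold, and those of C2, C3, C4b and Cfd include 0.

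The wider pathway was described with a list of 50 other complement genes, of which 37 could be tested. Of these, 10 were called lower and 6 higher, beside the 8.28% and 10.2% of all genes, and the median difference was -0.45 on the log2 scale. Among the genes that could not be tested, Masp1, Mbl1, Mbl2, Fcnb, Colec10, C8a, C8b, C9, C4bp and Cpn1 were not well above background, and C4a had no probe under its accession. On every Zip13-KO array, 17 of the 37 were lower than on every WT array and 8 were higher. Of all genes tested, 25.9% were lower and 29.2% higher in this way.

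Among the initiators, 9 of 14 genes were tested, with 2 called lower and 1 higher. Fcna, ficolin A, a lectin-pathway recognition protein of macrophages, was at 11.46, 11.90 and 11.53 in WT and at 10.11, 10.11 and 10.92 in Zip13-KO, a difference of -1.25 (adjusted p = 0.0152, limma). The proteases of the C1 complex had smaller differences. C1rb fell by 0.73 (adjusted p = 0.0339, limma), while C1ra (-0.65), C1s1 (-0.58) and C1s2 (-0.50) did not pass, with adjusted p values of 0.0510, 0.0649 and 0.0928 in limma. C1ra and C1rb are close copies, as are C1s1 and C1s2, so their probes may share signal. Masp2, a lectin-pathway protease, was 0.99 higher (adjusted p = 0.0067, limma) at a low signal of 4.19 to 5.53.

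In the convertase, alternative and terminal group, 5 of 9 genes were tested, and 2 were called in each direction. Cfp, properdin, a leukocyte product that stabilises the alternative convertase, was at 15.21, 14.74 and 14.49 in WT and at 13.65, 13.48 and 13.95 in Zip13-KO. Its difference of -1.12 (adjusted p = 0.0133, limma) was the largest of the group. The terminal genes went both ways, with C6 at -0.85, C7 at 0.89 and C8g at 0.98 (adjusted p of 0.0234, 0.0232 and 0.0046, limma), while Hc, which encodes C5, was at -0.51 with overlapping arrays.

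The regulators gave 1 gene called lower and 3 called higher of 13 tested. Cfi, which cleaves C3b and C4b, had the lowest fitted value (-0.72), but its arrays overlapped and it did not pass (adjusted p = 0.314, limma). The genes that rose were Vtn by 0.62, Cd59a by 0.88 and Cd59b by 1.29 (adjusted p of 0.0156, 0.0353 and 0.0191, limma). The Cd59 proteins block the membrane attack complex on the cell surface, and Cd59a was at 10.50, 11.37 and 11.35 in WT and at 11.93, 12.00 and 11.92 in Zip13-KO. Cd59a and Cd59b are paralogs, and cross-hybridisation between them cannot be told apart here.

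The receptors were the group with the lowest median, -0.69, and of 10 tested 5 were called lower and 0 higher. C5ar1, the receptor of the anaphylatoxin C5a, was at 9.41, 9.37 and 8.84 in WT and at 6.91, 6.74 and 7.08 in Zip13-KO, 4.92-fold lower (difference -2.30, adjusted p = 0.0040, limma). C3ar1, the C3a receptor, was at 9.99, 9.02 and 8.68 in WT and 6.95, 6.71 and 7.16 in Zip13-KO, 4.87-fold lower (difference -2.29, adjusted p = 0.0078, limma). Vsig4, a macrophage receptor of C3 fragments, fell by 2.10 on the log2 scale (adjusted p = 0.0081, limma). All 3 receptors had fitted falls of more than 2 on the log2 scale, where those of the C1q chains were 1.37 to 1.60; the difference between them was not tested.

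The integrin chains of complement receptors 3 and 4 did not all pass. Itgb2, the shared beta chain, fell by 1.17 and Itgax by 0.86 (adjusted p of 0.0028 and 0.0253, limma). Itgam was at -0.17 on its brightest probe, with 3 probes ranging from -1.37 to -0.17, so its value depends on the probe. Cr2, a receptor of B lymphocytes, was at -0.04, and C1qbp, a mitochondrial protein first found as a C1q binder, had the highest value of the group at 0.08.

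**Figure D3:**
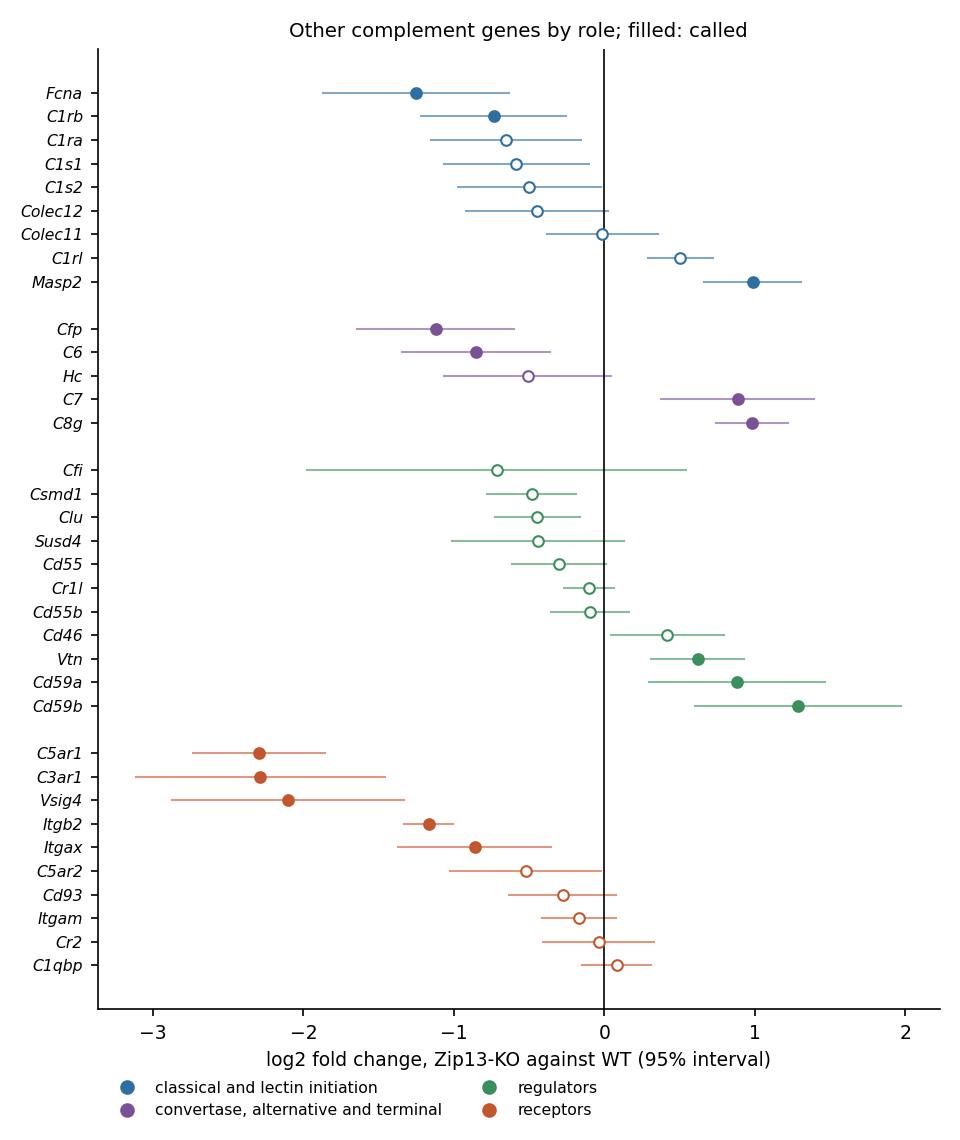
Log2 fold change of Zip13-KO against WT (horizontal axis) with its 95% interval from limma for tested genes of the wider complement list, grouped by role; filled points were called. The receptors C5ar1, C3ar1 and Vsig4 lie below -2, and the regulators Cd59a, Cd59b and Vtn lie above 0.

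Markers of the cell types in the depot were set beside these groups. Of all genes tested, 8.28% were called lower and 10.2% higher, and the counts of each marker list stand beside these shares. Of 15 macrophage markers, all tested, 12 were called lower and 0 higher, and the median was -1.25, between -2.57 for Fcgr1 and -0.18 for Timd4. Their summed signal was 98569.8 to 152246 in WT and 42292.3 to 57978.3 in Zip13-KO, where that of the C1q chains was 34160.7 to 62086.3 and 13186.8 to 21972. Summed signals, here and below, weigh the brightest probes of a list most and do not compare lists with each other. No macrophage marker was absent or below background in both genotypes. Relative to the WT mean, the median macrophage marker was at 0.35, -0.07 and -0.22 in WT and at -1.35, -1.44 and -0.93 in Zip13-KO, and the median C1q chain at 0.43, 0.05 and -0.45 and at -1.46, -1.83 and -1.06. Both lists ranked the 6 arrays in the same order, from WT 1 at the top to Zip13-KO 2 at the bottom. Of 8 neutrophil and monocyte markers 7 were tested (not Ly6c2) and 4 were called lower, with a median of -1.29 and the highest value at Csf3r (0.01). Their summed signals were 78787.2 to 81384.7 in WT and 67913.8 to 70953.3 in Zip13-KO. Csf3r, by far the brightest of these markers at 15.82 to 15.97 on the 6 arrays, made up most of each sum. The sums therefore do not show the change of the median marker. The lowest fitted value was that of Mmp8, which was not called and was well above background on only 2 of the 3 Zip13-KO arrays, so no size is given for it. The part of either cell type in the level of C1q was not tested.

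The stromal progenitor and fibroblast list had a median nearer to 0, at -0.71. All 15 of its genes were tested, 4 were called lower and 0 higher, and they lay between -1.37 (Ly6a) and -0.27 (Pdgfrb). The summed signal was 328173 to 736635 in WT and 281189 to 345747 in Zip13-KO, which overlap. Relative to the WT mean its median was at 0.47, -0.05 and -0.55 in WT and at -0.73, -0.83 and -0.58 in Zip13-KO, so WT 3 lay next to the Zip13-KO arrays. Serping1 and Cfb ranked the 6 arrays in the same order as this list, which is also the order of the macrophage list. C3 was at -0.03, with a sign that was not stable. Differences below 0 were found for 15 of 15 stromal markers, 8 of which overlapped between the genotypes. Over all 15307 genes tested, 7661 had a difference below 0. The part of stromal cell content in the levels of Serping1, Cfb, C4b, C2 and C3 was not tested.

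The adipocyte list went the other way. All 12 genes were tested, 5 were called higher and 0 lower, and 11 were higher on every Zip13-KO array, where 29.2% of all genes tested were. The median was 0.67, between 0.20 for Fabp4 and 1.13 for Pparg. Summed signals were 522682 to 728895 in WT and 895524 to 928600 in Zip13-KO. The difference of Cfd, 0.03, was below that of every gene of this list. At its rank near the top of every array, quantile normalization left Cfd little room to rise. With scaling to the 75th percentile the Cfd difference was 0.24. The marker values given here are under quantile normalization, so they are not to be set against 0.24. Fabp4, the marker with the smallest difference, is also among the brightest (17.10, 17.33 and 17.31 in WT and 17.48, 17.45 and 17.39 in Zip13-KO). The part of adipocyte content in the level of Cfd was not tested.

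**Figure D4:**
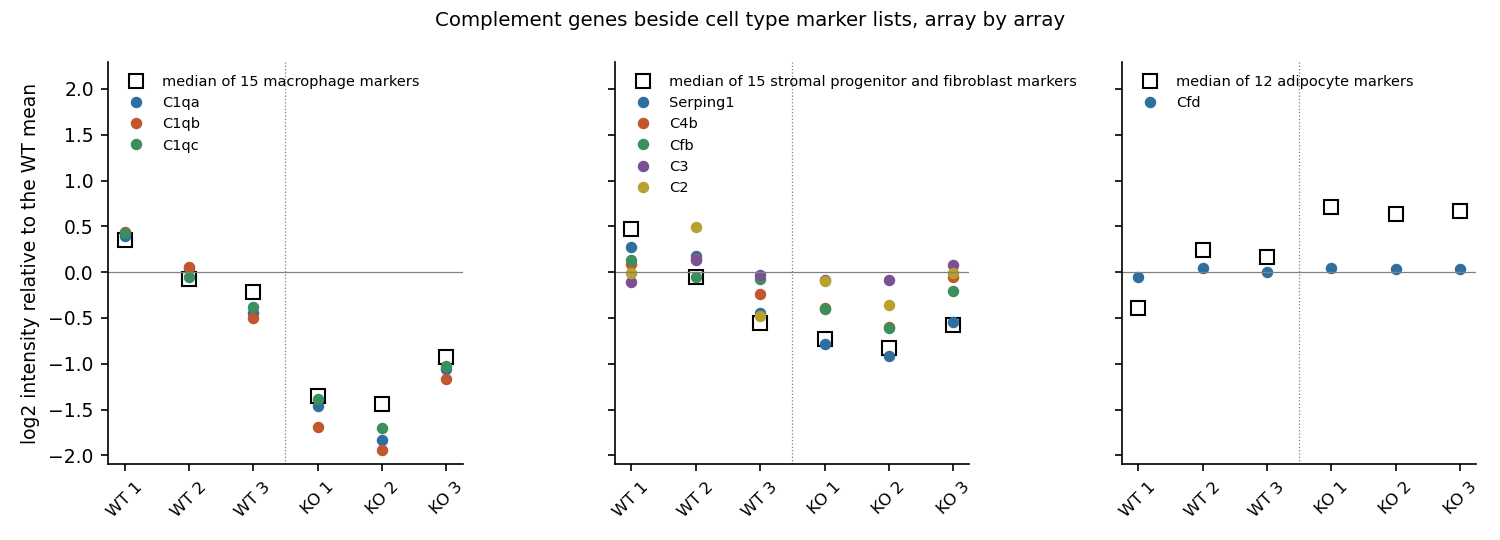
Log2 intensity relative to the WT mean (vertical axis) on each of the 6 arrays (horizontal axis) for complement genes (coloured points) and for the median of a cell type marker list (open squares). C1q lies close to the macrophage markers on each array (-1.83 against -1.44 in Zip13-KO 2), whereas Cfd stays near 0 where the adipocyte markers are at 0.63 to 0.71 in Zip13-KO. Cfd ranks near the top of every array, where quantile normalization leaves it little room to rise.

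Other cell types the depot could hold were examined in the same way. Of 8 endothelial markers 2 were called higher (median 0.37, summed signal 14355.4 to 15419.6 in WT and 18126.7 to 19740.2 in Zip13-KO), and of 10 B and T lymphocyte markers, 9 of them tested, 0 were called (median -0.39, summed signal 48708.5 to 59500.3 and 37458.6 to 40738.7). Of 9 hepatocyte markers 6, Apoa1, Ttr, Ahsg, Fgb, Fga and Apob, were not well above background. Alb alone was called, at 1.45. None of 6 mammary epithelial markers tested was called, and their median was 0.19. Of 8 skeletal muscle markers 1 (Myl1, 1.01) was called higher, but all 8 had differences above 0, with a median of 0.73, and 7 overlapped between the genotypes. Relative to the WT mean the median muscle marker was at 0.19, -0.65 and 0.53 in WT and at -0.07, 0.58 and 1.63 in Zip13-KO, so Zip13-KO 3 stood above the other arrays. The summed signal was 5514.63 to 8972.82 in WT and 10099.5 to 16547.2 in Zip13-KO. Without Zip13-KO 3, C1qa, C1qb and C1qc differed by -1.65, -1.82 and -1.54 on the log2 scale (adjusted p of 0.0255, 0.0245 and 0.0257, limma).

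Among 13 transcription regulators, chosen as factors of myeloid cells, of acute inflammation or of adipocytes, 3 were called lower and 2 higher. Over all genes tested, 8.28% were called lower and 10.2% higher. The regulators that fell include factors of macrophages and their precursors. Spi1, which encodes PU.1, was at 8.27, 8.14 and 7.97 in WT and at 6.63, 6.56 and 6.71 in Zip13-KO, a difference of -1.50 (adjusted p = 0.0033, limma). Its gene is the next protein-coding gene to Slc39a13 on chromosome 2, and whether this position has any part in its level was not tested. Irf8, at 13.81, 13.77 and 13.82 in WT and 12.79, 12.97 and 13.02 in Zip13-KO, fell by 0.87 (adjusted p = 0.0046, limma).

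The regulators of adipocytes Cebpa and Pparg rose by 0.82 and 1.13 (adjusted p of 0.0280 and 0.0141, limma). Among the regulators that were not called, Stat3 was at -0.45, Nfkb1 at -0.35 and Cebpb at 0.46. These passed the adjusted p (0.0088, 0.0238 and 0.0151, limma) but were under the fold threshold. Rela was at -0.23, Irf1 at -0.10 and Cebpd at -0.09, with adjusted p values of 0.0770, 0.751 and 0.679 in limma.

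Other genes whose products carry a C1q domain were examined as relatives of the C1q chains. Of 14 listed, 11 were tested (not C1ql1, C1ql2 and C1ql4), 0 were called lower and 3 higher, with a median of 0.04. The shares over all genes tested were 8.28% lower and 10.2% higher. C1qtnf9 rose by 1.20, C1qtnf4 by 0.84 and C1qtnf12 by 0.83 (adjusted p of 0.0049, 0.0125 and 0.0074, limma). Adipoq, adiponectin, an adipocyte hormone of this family, differed by 0.41 with an adjusted p of 0.0499, under the fold threshold. C1qtnf3 had the lowest value, -0.98, and did not pass (adjusted p = 0.228, limma).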

How the data were processed

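RNA of iWAT from 3 WT and 3 Zip13-KO mice was measured on 6 one-colour Agilent SurePrint G3 Mouse GE 8x60K arrays. The authors deposited scanner files (Feature Extraction 11.5.1.1) with background-corrected intensity per spot, not normalized between arrays, and a values table of log2 median signal, quantile normalized, whose origin was found by its rank correlation with the scanner columns (1 on every array). Here control and outlier spots were removed, the log2 processed signal was averaged over the spots of a probe and arrays were quantile normalized. Dim probes, not well above background throughout the 3 arrays of either genotype, were dropped, and the brightest kept probe stood for its gene. Probes were named by RefSeq accession (28331 of 55681). The array design was annotated on another build than the names, so no probe positions are given, and promoters are RefSeq's (GRCm38.p6).

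Genotypes were compared by lmFit and eBayes of limma 3.58.1 (R 4.3.3), tested on simulated data. The thresholds are those of the supplementary methods, whose combined test could not be rebuilt. For single genes the exact permutation test over arrays was used. Named are the 9 genes and Slc39a13, in each other list the called complement genes and the genes with the largest and smallest change, and the 3 genes nearest in pattern to C1qa, C3 and Cfd; other genes were named after their values were seen, and some genes of the lists are counted but not reported here by name. The members and lists were chosen with earlier results of these data known. Besides the main setting 20 alternatives were run. Those on background correction used the median spot signal. The number of arrays limits the precision.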

Additional observations from a re-analysis of the deposited data

How the results depend on the processing

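The C1q chains kept their direction under all alternatives run, at -1.67 to -1.25 for C1qa, -1.85 to -1.38 for C1qb and -1.56 to -1.15 for C1qc on the log2 scale, and lost the call in 3, 1 and 2 of 18 fits (adjusted p at most 0.101). Serping1 lost it in 10 of 18, at -0.97 to -0.61. Of the 9 genes 4 were called lower. The count was 1 with the methods' t-test after adjustment and 0 with either the slide column as a term or an adjusted p under 0.01, and 2 to 4 when 1 array was left out (2 without Zip13-KO 1). Of the wider list 10 were called lower and 6 higher, against 4 and 3 with the methods' t-test after adjustment, 0 and 0 with the slide column, and 4 and 2 with an adjusted p under 0.01. Leaving out 1 array gave 5 to 14 lower (5 without Zip13-KO 1 or 2) and 2 to 6 higher (2 without Zip13-KO 1, 3 without Zip13-KO 2). C3 (-0.03) reversed to 0.087 with scaling to the 75th percentile and ranged from -0.088 to 0.033 (reversed without WT 2) when 1 array was left out. C2 (-0.15) ranged from -0.39 to 0.096 (reversed without WT 2). The slide column leaves Zip13-KO 1 as the array compared within column 1; for the other changes the cause was not tested.

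The replicate numbers gave no sign of pairing, as deviations of same-numbered arrays correlated at -0.02, 0.04 and -0.08. Arrays of different numbers correlated at -0.17 to 0.18. With so few arrays such correlations cannot exclude a pairing. With the number as a replicate block, 3 of the 9 genes were called lower (Serping1 lost, adjusted p = 0.0950, limma) and 6 of the wider list.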
